A study of Mus musculus with 2 samples.

Results

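CpG-dense probes are the oligonucleotides of a pair of mouse promoter arrays that hold 5 or more CpG dinucleotides in their own sequence. They were counted on the printed probe sequences, among measured probes with a chromosome position, with no use of any signal. Array 1 holds 3870 such probes of 236896 (1.63%), and array 2 holds 3894 of 236768 (1.64%), 7764 of 473664 in all. No probe sequence occurs more than once among them.

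The arrays carry a chromatin immunoprecipitation (ChIP) from germ cells of adult male C57BL/6 mice, taken from 5 testes, fixed in 1% formaldehyde for 10 min and sonicated. DNA precipitated with an antibody against CREM (sc-440) was labelled with Cy5, and DNA precipitated with goat IgG, the negative control, with Cy3; both came from the same kind of fixed cells and were hybridised together. The 2 arrays share no probe, each was hybridised 1 time, and dyes were not swapped, so antibody and dye cannot be told apart and there is no replicate error. Every comparison below is therefore a description of these hybridisations, without a test. The precipitated DNA carries no marker of expression, so the labelled cell type could not be checked.

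Cytosines followed by guanine are rare in mammalian genomes because methylated ones mutate, and they are retained at CpG islands, stretches that stay largely unmethylated and overlap many promoters, those of housekeeping and developmental genes above all. CREM is a bZIP transcription factor of the CREB family that is abundant in haploid male germ cells. Its binding site, the cAMP response element, has a CpG at its centre, so the promoters it is known to act on include many CpG-rich ones.

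The value of a probe is the log2 ratio of the CREM signal over the IgG signal after the scanner's background subtraction and dye normalisation, centred on the array's median. A ratio of 1 or more is a 2-fold excess of CREM signal, and -1 or less a 2-fold excess of IgG signal. Sequences below are as printed in the array files, 5′ to 3′, with each CpG in capitals. Positions are those of mouse build mm9, per the file headers, and the strand of a probe is not given there.

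The 3 CpG-dense probes with the lowest ratio on each array, among those well above background in both channels, show what lies far on the IgG side. On array 1 they belong to Vps36, a subunit of the endosomal sorting complex ESCRT-II, at chr8:23303580-23303624, Ddx55, a DEAD-box RNA helicase, at chr5:125003009-125003053, and Shf, a signalling adaptor with an SH2 domain, at chr2:122194543-122194587. On array 2 they belong to Ntsr2, a neurotensin receptor, at chr12:16660397-16660441, Gspt1, a translation termination factor, at chr16:11253874-11253918, and L3mbtl3, a chromatin protein with MBT repeats, at chr10:26094180-26094224.
Vps36: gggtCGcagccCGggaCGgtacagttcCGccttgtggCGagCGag
Ddx55: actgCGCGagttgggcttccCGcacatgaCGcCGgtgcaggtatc
Shf: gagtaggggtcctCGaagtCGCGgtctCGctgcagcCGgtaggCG
Ntsr2: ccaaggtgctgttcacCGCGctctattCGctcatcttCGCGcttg
Gspt1: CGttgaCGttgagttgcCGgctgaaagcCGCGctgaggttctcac
L3mbtl3: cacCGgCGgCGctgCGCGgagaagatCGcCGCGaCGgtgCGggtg
Their ratios were -3.87, -3.77 and -3.74 on array 1 and -3.99, -3.87 and -3.77 on array 2. The Ntsr2 probe, with 5 CpG and 57.8% GC, had a processed signal of 1174 for CREM and 18397 for IgG.

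The 3 highest CpG-dense probes on each array, under the same filter, stand at the other end. On array 1 they belong to Suv39h2, a histone H3 lysine 9 methyltransferase of the testis, at chr2:3391338-3391397, Opa3, a mitochondrial protein, at chr7:19813408-19813452, and Eprs, the glutamyl-prolyl-tRNA synthetase, at chr1:187186729-187186773. On array 2 they belong to Ddx42, a DEAD-box protein linked to splicing, at chr11:106078135-106078182, Zwilch, a kinetochore protein, at chr9:64020928-64020985, and Stk11, the kinase LKB1, at chr10:79578104-79578148.
Suv39h2: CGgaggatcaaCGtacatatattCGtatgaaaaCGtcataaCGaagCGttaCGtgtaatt
Opa3: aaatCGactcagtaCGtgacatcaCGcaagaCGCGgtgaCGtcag
Eprs: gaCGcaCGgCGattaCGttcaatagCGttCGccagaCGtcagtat
Ddx42: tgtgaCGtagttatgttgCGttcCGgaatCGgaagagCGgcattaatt
Zwilch: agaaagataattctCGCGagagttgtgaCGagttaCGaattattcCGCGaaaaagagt
Stk11: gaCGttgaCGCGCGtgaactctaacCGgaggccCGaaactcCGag
Their ratios were 2.33, 2.08 and 2.04 on array 1 and 3.38, 3.18 and 2.47 on array 2. The Ddx42 probe, with 5 CpG and 45.8% GC, had a processed signal of 9837 for CREM and 935 for IgG. GC content was 38.3%, 53.3%, 53.3%, 45.8%, 39.7% and 62.2% in this group in the order shown, against 71.1%, 64.4%, 68.9%, 57.8%, 60.0% and 77.8% in the group above.

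The probes with the most CpG and those at the class median show the ordinary case. Gnai1, which encodes an inhibitory G protein subunit, has a probe with 11 CpG and 82.2% GC at chr5:17866351-17866395. Kdm2a, a histone H3 lysine 36 demethylase that itself binds unmethylated CpG and is named Fbxl11 on the array, has one with 12 CpG and 77.8% GC at chr19:4397286-4397330. Rps19, a ribosomal protein gene, at chr7:25669613-25669657, and Tmem17, a ciliary membrane protein gene, at chr11:22412783-22412827, hold the probes nearest the median.
Gnai1: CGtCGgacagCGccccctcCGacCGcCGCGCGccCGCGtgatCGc
Kdm2a: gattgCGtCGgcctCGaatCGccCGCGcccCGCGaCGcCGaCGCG
Rps19: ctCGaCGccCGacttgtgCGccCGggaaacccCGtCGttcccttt
Tmem17: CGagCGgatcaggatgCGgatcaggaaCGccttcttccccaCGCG
The ratio was -1.54 for Gnai1 and -2.37 for Kdm2a, so the highest CpG number did not go with the lowest ratio. The Gnai1 probe was bright in both channels, with 11990 for CREM and 34291 for IgG, and the Rps19 probe had 2288 for CREM and 7326 for IgG.

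CpG-dense probes lay on the IgG side as a class, on both arrays and by like amounts. Of the 3870 and 3894 probes, 3843 and 3861 were used, because 27 and 33 were not well above background in either channel. Their median ratio was -1.70 on array 1 (quartiles -2.12 and -1.31, lowest -4.00, highest 2.33) and -1.71 on array 2 (quartiles -2.18 and -1.22, lowest -3.99, highest 3.38), against 0.01 for all probes with fewer CpG on each array. A 95% interval of the class median from ranks, which covers the spread between probes only, ran from -1.73 to -1.68 on array 1. Below 0 lay 97.7% and 96.5% of CpG-dense probes, against 49.2% of the others on each array.

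A ratio of -1 or less was found at 3352 CpG-dense probes of array 1 (87.2%) and 3213 of array 2 (83.2%), where 6.47% and 6.57% of all probes used lay so low. A ratio of 1 or more was found at 23 (0.60%) and 48 (1.24%), where 9.05% and 9.85% of all probes used lay so high. CpG-dense probes thus made up a larger share of the IgG side, and a smaller share of the CREM side, than of the arrays. Under normexp background correction the class median was -0.62 on array 1 and -0.85 on array 2. The counts at -1 or less were then 1012 of 3843 and 1424 of 3861. The share of all probes used at -1 or less was not computed under normexp, so these counts have no background beside them. With the median of each 2% GC bin taken out, the class median was -0.41 and -0.45.

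Along the number of CpG the ratio declined step by step. On array 1 its median was 0.05, 0.03, -0.11, -0.59 and -1.19 with 0, 1, 2, 3 and 4 CpG, then -1.54, -1.78, -1.92, -2.10 and -2.20 with 5, 6, 7, 8 and 9 or more. Array 2 gave 0.04, 0.04, -0.05, -0.48 and -1.09, then -1.50, -1.80, -2.02, -2.07 and -2.31. The step across the threshold, 5 CpG against 4, was no larger than the step from 3 to 4, so the threshold cuts a continuous series. Quartiles at 5 CpG were -1.92 and -1.15 on array 1 and -1.98 and -1.01 on array 2, so neighbouring classes overlap widely.

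The signals behind the ratio were not low. CpG-dense probes had a median processed signal of 1224 for CREM and 3859 for IgG on array 1, and of 1023 for CREM and 3235 for IgG on array 2. Other probes had 785 for CREM and 773 for IgG on array 1, and 777 and 764 on array 2. Both channels were thus brighter at CpG-dense probes, IgG by more. Before dye normalisation the median net signal of CpG-dense probes was 204 for CREM and 178 for IgG on array 1, and 145 and 132 on array 2, against 131 and 35.7, and 111 and 31.0, at other probes. IgG was well above background at 99.4% and 99.2% of CpG-dense probes, against 79.96% and 81.7% of the others, and no CpG-dense probe was saturated.

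The physical design of the class differed too. Probes of 45 bases made up 97.1% and 96.3% of CpG-dense probes, against 15.5% and 15.4% of the others. Median GC content was 68.9% on both arrays, against 40.4% at other probes on each. Probe length and GC content therefore move with CpG number across the arrays, and the number of CpG was set apart from GC content inside the class.

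At fixed GC content, more CpG went with a lower ratio. Probes with 8 or more CpG were compared with probes with 5 in bins of 4% GC that hold at least 20 of each, which left 4 bins from 68% GC upwards, with 286 against 812 probes on array 1 and 290 against 821 on array 2. The difference of medians, averaged over bins by their number of probes, was -0.66 on each array. It was negative in 4 of 4 bins on both, with -0.80 and -0.54 as the extremes on array 1, and -0.80 and -0.57 on array 2. Smaller steps gave smaller differences: 7 against 5 CpG gave -0.46 and -0.59, negative in 6 of 6 bins on each array, and 6 against 5 gave -0.26 and -0.29, negative in 8 of 8. At 72 to 76% GC on array 1 the medians were -1.47, -1.66, -1.94 and -2.27 at 5, 6, 7 and 8 or more CpG. Among 45-base probes alone the difference for 8 or more against 5 was -0.67 and -0.66. Under normexp it was -0.11 on array 1 and -0.52 on array 2.

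Averaged over GC bins, both channels were dimmer with more CpG. Log2 CREM signal differed by -1.19 on array 1 and -1.39 on array 2 for 8 or more CpG against 5, and log2 IgG signal by -0.57 and -0.67. CREM was lower in 4 of 4 bins on each array, and IgG in 3 of 4 and 4 of 4. For 6 against 5 CpG, CREM was lower in 7 of 8 and 8 of 8 bins, and IgG in 5 of 8 and 6 of 8. Without fixing GC the IgG signal had gone the other way, with 5231 at 8 CpG against 3436 at 5 on array 1 and 5432 against 2875 on array 2. The CREM signal without fixing GC was 1228 at 8 CpG against 1235 at 5 on array 1, and 1384 against 1053 on array 2. At 72 to 76% GC on array 1, for example, log2 CREM signal was 11.25 at 5 CpG, 10.85 at 6, 10.57 at 7 and 10.17 at 8 or more, and log2 IgG signal was 12.71, 12.62, 12.30 and 12.40.

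GC content at a fixed number of CpG moved the brightness far more than the ratio. Probes at 68% GC or more were compared with probes under 60% at 5 and at 6 CpG, 1461 against 361 on array 1 and 1473 against 372 on array 2. Log2 signal was higher by 1.74 and 1.65 for CREM and by 2.21 and 2.33 for IgG. The ratio differed by -0.21 on array 1 and -0.53 on array 2, and under normexp by -0.51 and -0.14, so its size differed between arrays and settings. Further up the scale the sign was the opposite one: probes at 76% GC or more against probes at 60 to 68% gave 0.33 on array 1 and 0.29 on array 2. The relation of ratio to GC content within the class was thus not a steady one.

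Other features of composition were compared in the same way. Probes with 7 or more GpC dinucleotides, the same bases in the opposite order, differed in ratio by -0.39 on array 1 and -0.61 on array 2 from probes with 4 or fewer, at fixed GC and fixed CpG number, with a negative difference in 7 of 7 strata on each array. The channels moved otherwise than with CpG: CREM differed by -0.15 and -0.23 and IgG by 0.46 and 0.27. Probes with at least 4 more G than C, against probes with at least 4 more C than G, differed in ratio by -0.27 and -0.28, with both channels dimmer, CREM by -1.25 and -1.06 and IgG by -1.01 and -0.83. A lower ratio inside the class was therefore measured with more CpG, with more GpC and with more G on the printed strand.

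CpG-dense probes with low GC content did not share the low ratio. Below 44% GC there were 26 on array 1 with a median of 0.21 and 30 on array 2 with a median of 0.63. The median was -0.82 and -0.23 at 44 to 52% GC, -1.54 and -1.30 at 52 to 60%, and -1.73 and -1.75 at 60% or more. Probes with 0 to 2 CpG had 0.13 and 0.12 below 44% GC, and -0.54 and -0.50 at 60% or more. The class thus differed from CpG-poor probes in the GC-rich ranges, where most of its members lie, and below 44% GC its medians were not lower than theirs. The 95% rank interval of the median below 44% GC ran from -0.15 to 0.48 for CpG-dense probes of array 1 and lay between 0.09 and 1.36 on array 2, since these are few. IgG signal in the low-GC group had a median of 841 and 494, against 4307 and 3593 at 60% GC or more. In that group CREM was well above background at 100% of probes, but IgG at 84.6% and 66.7%. The remaining ones were thus used through the CREM channel alone. IgG was well above background at 73.7% and 76.4% of probes with 0 to 2 CpG below 44% GC. Median length was 58 and 57 bases in the low-GC group, against 45 at 60% GC or more, so length moved with GC content.

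The 23 and 48 CpG-dense probes on the CREM side had lower GC content than most of the class. Below 44% GC lay 3 of the 23 and 14 of the 48, against 26 of 3843 and 30 of 3861 in the class. Below 52% lay 13 and 30 of the CREM-side probes, and below 60% 20 and 41, with a median of 51.1% and 50.05%. Of them 15 and 40 held exactly 5 CpG. Their median signal was 2255 and 2295 for CREM and 775 and 710 for IgG. Besides the 6 printed above, they include probes of Meig1, a meiosis and spermiogenesis gene, at 1.47, E2f1, a cell cycle transcription factor, at 1.90, and Rrm1, a ribonucleotide reductase subunit, at 1.26 on array 1; these 3 were named after their values were seen. In 4 of the 23 and 12 of the 48 a channel was not well above background.

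CpG-dense probes had lower ratios than the probes beside them. Within 300 bp of 3468 CpG-dense probes on array 1 and 3485 on array 2 lay at least 1 probe with under 5 CpG. CpG-dense probes had a median of -1.70 and -1.71, and the mean of their near probes a median of -0.60 and -0.53. The median difference was -1.12 (quartiles -1.76 and -0.50) on array 1 and -1.18 (quartiles -1.87 and -0.53) on array 2, and the CpG-dense probe was the lower one at 3078 (88.8%) and 3083 (88.5%). By channel the median difference was 0.21 and 0.02 for log2 CREM signal, and 1.30 and 1.23 for log2 IgG signal. Sonicated fragments usually span several such probes, so these probes are not independent of each other. With the GC trend taken out the difference was -0.44 and -0.48, and under normexp -0.51 and -0.66.

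The difference from near probes grew with CpG number. It was -1.01, -1.14, -1.33 and -1.38 on array 1 at 5, 6, 7 and 8 or more CpG, and -1.02, -1.24, -1.43 and -1.52 on array 2. The near probes themselves went down less, to -0.76 and -0.65 around probes with 8 or more CpG, against -0.53 and -0.48 around probes with 5.

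CpG-poor probes of low GC content around the class often lay on the CREM side. Over all GC contents, probes with 0 to 2 CpG within 150 bp had medians of -0.42 and -0.33. Of them 9.49% and 11.3% lay at 1 or more, and 19.8% and 16.6% at -1 or less. At 150 to 300 bp 17.1% and 18.3% lay at 1 or more, and at 500 to 750 bp 22.6% and 24.3%. Among probes with 0 to 2 CpG and under 44% GC, the share at 1 or more on array 1 was 33.7% within 150 bp of a CpG-dense probe, 39.9% at 150 to 300 bp, 35.4% at 300 to 500 bp, 31.3% at 500 to 750 bp and 26.1% at 750 to 1000 bp, then 16.9%, 11.6%, 9.13% and 7.70% up to 5000 bp, and 10.2% farther away. Array 2 gave 37.3%, 40.9%, 35.7%, 32.8% and 26.1%, then 17.98%, 11.4%, 9.71% and 7.99%, and 11.1%. The share among CpG-dense probes was 0.60% and 1.24%. Those shares are over all GC contents; under 44% GC, as for the CpG-poor probes, 3 of 26 (11.5%) and 14 of 30 (46.7%) CpG-dense probes lay at 1 or more. Among the probes used, low-GC, CpG-poor sequence within 1000 bp of the class held more CREM-side probes, by share, than such sequence beyond 5000 bp. Probes well above background in CREM alone were kept in all these groups, which favours a high ratio. CpG-dense probes of equally low GC were too few, and too unlike between the arrays, to be placed against that sequence. The share at 150 to 300 bp rests on 293 of 735 and 307 of 751 probes, and under normexp on 87 and 151 of the same numbers.

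At 21 gene names CpG-dense probes lay on both sides, at 1 or more and at -1 or less. Their distance ranged from 119 to 4765 bp, and 11 of the 21 pairs lay within 500 bp. The CREM-side probe had the lower GC content in 20 of 21, with a median of 49.0% against 71.1%, and equal GC content in 1. IgG signal was lower at the CREM-side probe in 18 of 21, and CREM signal higher in 16. Choosing pairs by ratio forces a lower IgG signal, a higher CREM signal or both, so these counts add no separate result. At Dtl, Rmnd5a, Msi2 and Zfp692 the CREM-side probe was not well above background in both channels, and at Kazald1 the IgG-side probe was not. A pair each from Stk11, Ddx42 and Tbrg4 is described below, chosen after the values were seen. Further CpG-dense probes of Stk11, at -1.99 and -2.44, and of Ddx42, at -1.68, lay on the IgG side. Eprs is the highest gene median of array 1.

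Stk11 holds the pair of equal GC content, at 62.2%. Its CREM-side probe, printed above, has 7 CpG, a ratio of 2.47, and signals of 3439 for CREM and 613 for IgG. The IgG-side probe starts 444 bp on, at chr10:79578548-79578592, has 5 CpG and a ratio of -3.74, and had 5357 for CREM and 70578 for IgG. Ddx42 has its IgG-side probe 126 bp from the one printed above, at chr11:106078261-106078305, with 5 CpG, 73.3% GC and a ratio of -2.09. Tbrg4, a regulator of mitochondrial RNA, has the closest pair, 119 bp apart, at 1.51 for chr11:6525943-6525987 with 60.0% GC and at -2.40 for chr11:6526062-6526106 with 68.9% GC.
Stk11, IgG side: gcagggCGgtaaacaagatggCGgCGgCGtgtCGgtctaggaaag
Ddx42, IgG side: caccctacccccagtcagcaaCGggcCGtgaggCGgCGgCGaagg
Tbrg4, CREM side: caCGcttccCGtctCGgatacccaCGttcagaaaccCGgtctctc
Tbrg4, IgG side: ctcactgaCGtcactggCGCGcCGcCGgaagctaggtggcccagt
In each of these 3 genes both probes of the pair lie within 500 bp, and their ratios lay on opposite sides.

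Position at a gene start made little difference within the class. Of the CpG-dense probes, 928 (24.0%) on array 1 and 901 (23.1%) on array 2 matched letter for letter a RefSeq promoter window (250 bases before to 50 after a gene start, assembly GRCm38.p6, used for sequence matching only), against 3.30% and 2.95% of probes with 0 to 2 CpG. The median ratio was -1.69 inside such a window on each array, and -1.71 and -1.72 outside. By distance to the start, medians stayed between -1.72 and -1.65 on array 1 and between -1.71 and -1.66 on array 2. Probes matching the strand of the gene had a median of -1.71 and -1.71, those matching the opposite strand -1.67 and -1.66. Exons, introns and UTRs were not read, because no annotation of build mm9 was used here.

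Probes with several of the class close by were slightly lower. Linked at gaps of up to 500 bp, 1934 and 1946 CpG-dense probes stood alone, with a median of -1.67 and -1.66. Groups of 4 or more, 63 and 46 in number and at most 6 probes long, had a median of -1.84 and -1.93. At 5 CpG exactly the medians were -1.64 and -1.79 in such groups and -1.50 and -1.41 for lone probes. By chromosome the median ran between -1.77 and -1.54, and the 151 on chromosome X made up 0.87% of that chromosome's probes.

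Short motifs in the probe letters were counted on both strands. The full cAMP response element, TGACGTCA, occurred in 26 CpG-dense probes of array 1 (0.67%) and 19 of array 2 (0.49%), against 0.05% and 0.04% of other probes. Their median ratio was -1.61 and -1.83, against -1.70 and -1.71 for the class without it, and 1 on each array was at 1 or more, the Opa3 probe printed above, and on array 2 a probe of Ccdc86, a nucleolar protein gene, at chr19:11023753-11023797 with a ratio of 2.13.
Ccdc86: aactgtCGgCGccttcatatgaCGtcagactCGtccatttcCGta
The IgG-side probe of Tbrg4 printed above also holds the full element. At fixed GC and CpG number the difference could be had on array 1 only, from 1 stratum with 5 carriers, and was 0.58 (0.31 under normexp), the carriers being higher. At -1 or less lay 64% and 77.8% of the used probes with the full element, against 87.4% and 83.2% of those without; for example, a probe of Brca2, the homologous recombination gene, had -2.30 and one of Pnrc1 had -1.81, both named after their values were seen.

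The core of the element, TGACG, which every full element contains, occurred in 353 and 357 CpG-dense probes. At 1 or more were 3.18% and 3.11% of those with it, 11 on each array, against 0.34% and 1.06% of those without, so it occurs in 11 of the 23 and 11 of the 48 CREM-side probes. Its carriers had a median GC of 64.4% and 66.7%, against 68.9% without. Within strata of GC and CpG number the difference of median ratios was 0.05 and 0.01. Core carriers at 1 or more from Rmnd5a, Dtl, Ergic2 and Prkcsh on array 1 were not well above background in both channels. On array 2 the same held for those from Msi2, Ftsj1, Impdh2, C330007P06Rik and Atrip. The shares were not computed without these probes. With them counted, the core was more frequent in the upper tail, with medians nearly the same.

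Among other motifs, the GC box GGGCGG, bound by SP1, occurred in 440 and 453 CpG-dense probes. Its carriers were brighter at fixed GC and CpG number, by 0.86 and 0.66 in log2 CREM signal and by 0.89 and 0.65 in log2 IgG signal, with a ratio differing by 0.03 and 0.07, and none lay at 1 or more. CGCG occurred in 58.1% and 57.0%, and the ratio differed by -0.00 and 0.01. The YY1 site AAGATGGCG, which the low Stk11 probe holds, occurred in 16 on each array with medians of -2.23 and -2.19. At fixed GC and CpG number its difference could be had on array 1 only, from 1 stratum with 5 carriers. It was -0.59, and -0.04 under normexp. The E box CACGTG (63 and 76 probes) differed by 0.35 and 0.14, the ETS site CCGGAAG (79 and 70) by 0.08 and 0.14, and CCAAT (127 and 113) by -0.10 and 0.03. The NRF1 site GCGCATGCG (18 and 15 probes), the E2F site TTTCGCGC (7 and 11) and the palindrome TCTCGCGA (18 and 25) were too rare for strata, and their medians lay between -1.90 and -1.35.

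The array's gene names place a CpG-dense probe at 2509 of 8488 genes on array 1 (29.6%) and at 2519 of 8319 on array 2 (30.3%), most of them with a single one (1603 and 1599). At least 3 used ones were found at 285 and 289 genes. The gene's median was -1 or less in 276 and 277 of these (96.8% and 95.8%), and 1 or more in 1 on array 1 and 0 on array 2. All of a gene's CpG-dense probes were below 0 in 274 and 268. Taken singly, 87.2% and 83.2% of CpG-dense probes lay at -1 or less, so the gene counts add little to the result for the class.

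The lowest gene medians on array 1 were those of Dnaja2, an HSP40 co-chaperone, at -2.85, Cbln1, a synapse organiser of the cerebellum, at -2.81, Kctd15, a regulator of neural crest development, at -2.67, Ube3c, a ubiquitin ligase, at -2.64, and Dpm1, which makes dolichol phosphate mannose, at -2.54. Under normexp these were -1.25, -1.28, -0.48, -1.53 and -0.75, so Kctd15 and Dpm1 were no longer at -1 or less. At Cbln1 the 3 probes agreed, with -2.81, -2.62 and -2.96, and their CREM signal was 676, 175 and 1882 beside an IgG signal of 4659, 1054 and 14381. At Dnaja2 they were -1.04, -2.85 and -3.07, and the first, with 8 CpG and 82.2% GC, was the brightest in both channels, at 9160 for CREM and 18526 for IgG. The other probes of Dnaja2 had a median of 0.73 and reached 2.42.

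On array 2 the lowest were Galnt1, which starts mucin-type O-glycosylation, at -2.89, Nrxn2, a presynaptic adhesion protein, at -2.86, Brd2, a bromodomain protein, at -2.82, Dock8, a guanine nucleotide exchange factor, at -2.75, and Abhd5, a co-activator of fat lipolysis, at -2.73. Under normexp these lay between -1.77 and -1.48, all still at -1 or less. The 4 probes of Nrxn2 all hold 5 CpG and had -2.58, -3.24, -2.78 and -2.94. The 3 of Brd2 differed more, with -2.99, -0.87 and -2.82. Their IgG signals at Brd2 were 6654, 47059 and 13787, so the probe with the highest ratio was the brightest.

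Eprs had the highest gene median, 1.47, and was the 1 gene of array 1 with a median of 1 or more. Its probe of 7 CpG, 172 bases before the RefSeq gene start and printed above, had 2.04 with signals of 1808 for CREM and 431 for IgG. The probe 19 bases before the start had 1.47 with 8173 and 2910. The third, 466 bp from the first and with 73.3% GC, had -1.22 with 690 and 1577. The other 27 probes of Eprs had a median of 1.17, so most of the gene's probes with fewer CpG lay on the CREM side as well. Under normexp the median of the 3 CpG-dense probes was 0.61, below the 2-fold line.

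The next highest medians on array 1 were -0.46 for Macrod2, which removes ADP-ribose from proteins, -0.57 for Rabgap1l, a Rab GTPase-activating protein, -0.59 for Podxl2, a sialomucin, and -0.73 for Kdm3a (Jmjd1a on the array), a histone demethylase needed for sperm maturation. On array 2 they were 0.09 for Ddx5, an RNA helicase, -0.14 for Rabl2 (Rabl2a on the array), a small GTPase of the sperm tail, -0.44 for Josd1, a deubiquitinase, -0.56 for Eaf2, a partner of the elongation factor ELL, and -0.85 for Amd1, an enzyme of polyamine synthesis. Several hold probes far apart: Macrod2 ranged from -2.60 to 0.25, and Josd1 from -2.69 to 1.44. Under normexp the sign turned at Macrod2 (0.22), Josd1 (0.43), Amd1 (0.05) and Ddx5 (-0.12).

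The genes with the most CpG-dense probes were Ebf3, a neuronal transcription factor, with 8, and Grin2d, an NMDA receptor subunit, with 7 on array 1, and Pcnx, a membrane protein gene, with 6 and AK122525 with 5 on array 2. Their medians were -1.89, -2.24, -2.32 and -1.93, and under normexp -0.90, -0.57, -1.33 and -1.002. At Ebf3 the highest of the 8 values, -0.78, belonged to the 60-base probe with 36.7% GC, and the other 7 lay between -2.51 and -1.56. Crem, on chromosome 18, has no CpG-dense probe among its 21, and the 18 used had a median of 0.17 and a highest value of 0.93.

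By gene lists, CpG-dense probes were most frequent at developmental regulators other than Hox genes (48 of 89 genes) and at imprinted genes (13 of 26). They were found at 29.96% of all genes. Counted by probe the excess was smaller, at 2.39% and 2.11% of the probes of these lists, against 1.66% over all genes. CpG-dense probes were rare at olfactory receptors (3 of 867) and keratins (2 of 74), tissue-restricted families whose promoters mostly lack CpG islands. The medians of the class in these lists were -1.96 for the developmental regulators (87 probes, 77 at -1 or less, 0 at 1 or more), -1.71 for imprinted genes (20 probes, 17 at -1 or less) and -1.79 for the Hox clusters (19 probes, 18 at -1 or less), against -1.71 over all 7704, of which 85.2% lay at -1 or less. These counts are close to that share. Within them, the lowest gene was Tbx1, a T-box factor of the pharyngeal arches, at -3.10 with 1 probe or more not well above background in both channels. Sox11, a neural transcription factor, had -1.60, Hoxd13, a digit patterning gene, -1.72, Igf2, a paternally expressed growth factor, -1.98, and Gnas, a G protein subunit, -1.31. Under normexp Tbx1 was at -1.34, and Sox11, Hoxd13, Igf2 and Gnas at -0.67, -0.33, -0.65 and -0.12.

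Genes of protein synthesis had higher medians than the other lists of 19 or more probes, though not under normexp. The 30 CpG-dense probes of ribosomal protein genes had a median of -1.37, with 20 at -1 or less and 1 at 1 or more, and the 20 of mitochondrial ribosomal proteins also had -1.37, with 16 at -1 or less. At 5 CpG exactly these were -1.20 and -1.35, against -1.52 over all. Their median GC content was 65.6% and 64.4%, against 68.9% over the class. Under normexp the medians were -0.56 for ribosomal proteins and -0.37 for mitochondrial ones, with imprinted genes at -0.35, developmental regulators at -0.85 and the Hox clusters at -0.90. Proteasome genes had -1.61 with 10 probes.

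Spermatid genes, transcribed after meiosis and including known CREM targets, had a CpG-dense probe at 4 of 29 genes. Those 6 probes had a median of -2.19, all at -1 or less. The other probes of all 29 listed genes had a median of 0.43 with 23.3% at 1 or more. Of all probes used, 9.05% and 9.85% lay so high. Most of the listed genes hold no CpG-dense probe, so this is not a comparison within genes. The 85.2% of the whole class at -1 or less leaves little to be read from 6 of 6. cAMP-responsive genes had 14 CpG-dense probes with a median of -1.85. Of these 12 lay at -1 or less, a share of 85.7% that is near that of the class. The other probes of all 27 genes in that list had a median of 0.16 with 14.6% at 1 or more. Creb1, a close relative of Crem, had -2.47. Earlier germline genes had 7 with a median of -1.58, and Tdrd1, a Tudor protein of the piRNA pathway, had -1.59. Liver genes, which serve as an unrelated tissue, had 2 with a median of -0.81. Under normexp the list medians were -1.20 for spermatid, -0.88 for cAMP-responsive and -0.77 for germline genes, and Creb1 and Tdrd1 were at -0.98 and -0.79. In every list with 3 or more of the class, the CpG-dense probes had a negative median, also under normexp and loess.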

How the data were processed

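Per the labels and the file headers, the deposited scanner files come from Agilent Feature Extraction 10.7.1.1 and hold, per probe, a mean signal intensity, a local background and a background-subtracted, dye-normalised processed signal intensity in each channel, with positions in mm9. Per the submitters' processing notes, R 2.10.1 and limma were used, and the values in the authors' deposited table are log2 ratios. Loess of background-subtracted signals in the order of the spots returned it (correlation 1 on each array).

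The ratio was log2 of the processed CREM over the processed IgG signal, minus its median over each array's used probes (0.02 on both). The scanner's own log10 ratio, as deposited, was read but not used for results. Control spots, outlier spots and probes well above background in neither channel were left out, which left 228277 and 226404 probes. Differences at fixed composition used bins of 4% GC with at least 20 probes a side (motifs at least 5), averaged by number of probes. Intervals of medians (95%) come from ranks. Gene names were updated through a RefSeq table of GRCm38.p6, and promoter windows and their sequences are RefSeq's; probe sequences are those of the array. Alternatives were normexp (offset 50) and loess in limma 3.58.1, the authors' values, other filters, bins, thresholds and distances, and removal of the GC trend. The steps were tested on simulated data. The CpG-dense probes and the gene lists were chosen with earlier results of these data known.

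Named genes were, per array, the 5 lowest and 5 highest medians among genes with at least 3 used CpG-dense probes all above background in both channels and the 2 with the most, per list the lowest and highest gene with at least 3 used ones, and Crem. The number of arrays limits the precision, since each was hybridised 1 time.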

Additional observations from a re-analysis of the deposited data

How the results depend on the processing

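The class median, the difference between CpG numbers at fixed GC, the difference from near probes, and that between GC contents against under 60% GC were negative under each setting listed here, on both arrays; their sizes varied. At 76% GC or more against 60 to 68% the GC difference was positive (0.33 and 0.29). No paired analysis was possible because each group is 1 hybridisation. The class median, -1.70 on array 1 and -1.71 on array 2, was -0.62 and -0.85 under normexp, -1.48 and -1.42 under loess and also with the authors' values, -1.62 and -1.63 with both channels above background, -0.41 and -0.45 without the GC trend, and -1.88 and -1.91 with 6 or more CpG. Counts at -1 or less were 1012 of 3843 and 1424 of 3861 under normexp. With 6 or more CpG they were 1763 of 1894 and 1703 of 1851, since that class is smaller. Counts at 1 or more were 14 of 3843 on array 1 under normexp, and 8 of 1894 and 8 of 1851 with 6 or more CpG. For 8 or more against 5 CpG at fixed GC, the difference was -0.11 and -0.52 under normexp, -0.51 and -0.55 under loess and with the authors' values, and, for 7 or more against 5, -0.56 on array 1. For GC at fixed CpG number, normexp gave -0.51 and -0.14. The difference from near probes was -0.51 and -0.66 under normexp, -0.99 and -1.002 under loess, -0.995 and -1.003 with the authors' values, -1.02 and -1.07 with both channels above background, -0.44 and -0.48 without the GC trend, -0.93 and -0.97 within 150 bp, and -1.35 and -1.40 within 500 bp. CREM-side probes among the low-GC, CpG-poor ones at 150 to 300 bp numbered 293 of 735 and 307 of 751 in the main setting. Under normexp they were 87 of 735 and 151 of 751. With both channels above background they were 175 of 468 and 183 of 508. Under loess and with the authors' values they were 201 of 735 and 193 of 751. Shares over all probes were not computed under these settings. These alternatives were chosen after seeing the data, as was the choice of 45-base probes. The cause of these shifts was not tested. Of 31 named gene medians, 27 kept their sign under normexp and 30 under loess and with the authors' values. IgG was well above background at 79.96% and 81.7% of other probes, against 99.4% and 99.2% of the class. How far this limits the ratios of other probes was not tested.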
